A study of Mus musculus with 21 samples.

Results

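The clustered protocadherins are cell-surface adhesion proteins encoded by 3 neighbouring gene clusters, alpha, beta and gamma. Members were taken as every row of the count table whose symbol is Pcdha, Pcdhac, Pcdhb, Pcdhga, Pcdhgb or Pcdhgc followed by a number. That gave 57 of 33861 rows, of which 14 were alpha, 21 beta and 22 gamma. In GENCODE M21, on mouse build GRCm38 (the same assembly as mm10), all 57 lie on the plus strand of chromosome 18. The alpha cluster spans 36930184 to 37187661, the beta cluster 37294812 to 37524479 and the gamma cluster 37661793 to 37841873.

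RNA was sequenced from 12 cultured samples of 1000 cells each and from 9 mouse epiblasts, each collected on its own. The cultured samples were 6 of formative stem cells (FS), 3 from each of 2 lines (5cdr1 at passages 10, 11 and 18, 5cdr2 at passages 12, 13 and 16), kept in a medium named A3XR, and 6 of epiblast stem cells (EpiSCs) named for E14, an embryonic stem cell line. Of the EpiSC samples, 3 were kept in medium AF and 3 in medium AFX, each at passages 14, 15 and 16. The epiblasts, the pluripotent tissue that gives rise to the embryo, were 3 each of stages E5.0, E5.5 and, by their titles, E6.0, which the cell type label gives as E6.5. In this field AF usually stands for activin with FGF2, and X for the tankyrase inhibitor XAV939, which lowers WNT signalling. Genotype and strain are not given in the labels. The samples of a line are passages of the same cells, so p-values between cultured groups measure the spread between passages, not between independent EpiSC lines. Where the 2 FS lines are fitted as 1 group, the spread also holds the difference between them. In fits with epiblasts it also holds the spread between single epiblasts. The FS and EpiSC groups differ in line and medium together, and both EpiSC groups carry the name of 1 line.

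Each alpha and gamma isoform starts from its own variable exon and promoter, and is spliced to constant exons shared by the whole cluster, whereas each beta gene is a single exon. Promoter choice involves the looping of a variable promoter to a distant enhancer by CTCF and cohesin. DNA methylation of the promoters, laid down in part by DNMT3B, and the chromatin protein SMCHD1 keep unchosen promoters silent. In neurons these proteins bind identical copies on other membranes and let a cell's own branches recognise each other. The C-type isoforms at the end of the alpha and gamma clusters are known to be regulated apart from the rest.

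The deposited values are read counts per gene, and totals per sample ran from 5827093 to 15916800. Levels are given as CPM, a gene's counts relative to the TMM-scaled library total, on which 3 counts were worth 0.171 to 0.589 CPM. A difference was called where edgeR's quasi-likelihood test gave an adjusted p under 0.05 (Benjamini-Hochberg over all genes tested), and each log2 fold change stands with its SE. Exon sequence outside that of any other gene on the same strand ran from 1570 to 8695 bases per member, and 2 members (Pcdha6 and Pcdha7) share over 20% of the 50-base words of that sequence with another row of the locus. In 13 members the unshared exon overlaps a gene on the other strand, in Pcdhga10 over its whole length, and whether strand was used in counting is not given in the sources used here. How reads in the shared constant exons were assigned is not given there either, but Pcdha1 had 2 counts over all 21 samples, so such reads were not credited to every alpha member. The table gives the symbol Pcdha11 to 2 rows, ENSMUSG00000007440 and ENSMUSG00000102206. It also gives Pcdhga8 to 2 rows, of which ENSMUSG00000023036 is Pcdhgc4 in GENCODE M21 and is called the Pcdhgc4 row here.

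All 3 clusters were read in the cultured cells, and little of any cluster was read in the epiblasts. The summed gamma level was 133 ± 15.1 CPM (SD, n = 6) in FS cells, 125 ± 3.02 (n = 3) in AF and 129 ± 7.51 (n = 3) in AFX, and the 3 groups overlapped. The 9 epiblasts summed to between 2.76 and 10.01 CPM of gamma counts, with a median of 5.96. The means of the cultured samples and of the epiblasts differed 22.4-fold, and every cultured sample was above every epiblast. The alpha total separated the cultured groups: it was 7.23 to 18.9 CPM in FS cells with a median of 11.01, against 1.30, 2.71 and 3.08 CPM in AF and 0.750, 0.939 and 2.16 CPM in AFX. Every FS sample was above every EpiSC sample, and the epiblasts, at 0.120 to 2.23 CPM, overlapped both EpiSC groups. Beta totals were 8.44 to 42.3 CPM in FS cells with a median of 18.6, 8.998, 12.6 and 18.1 CPM in AF, and 1.87, 5.501 and 8.89 CPM in AFX. FS and AF overlapped, AFX lay below AF, and no epiblast exceeded 1.26 CPM.

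**Figure D1:**
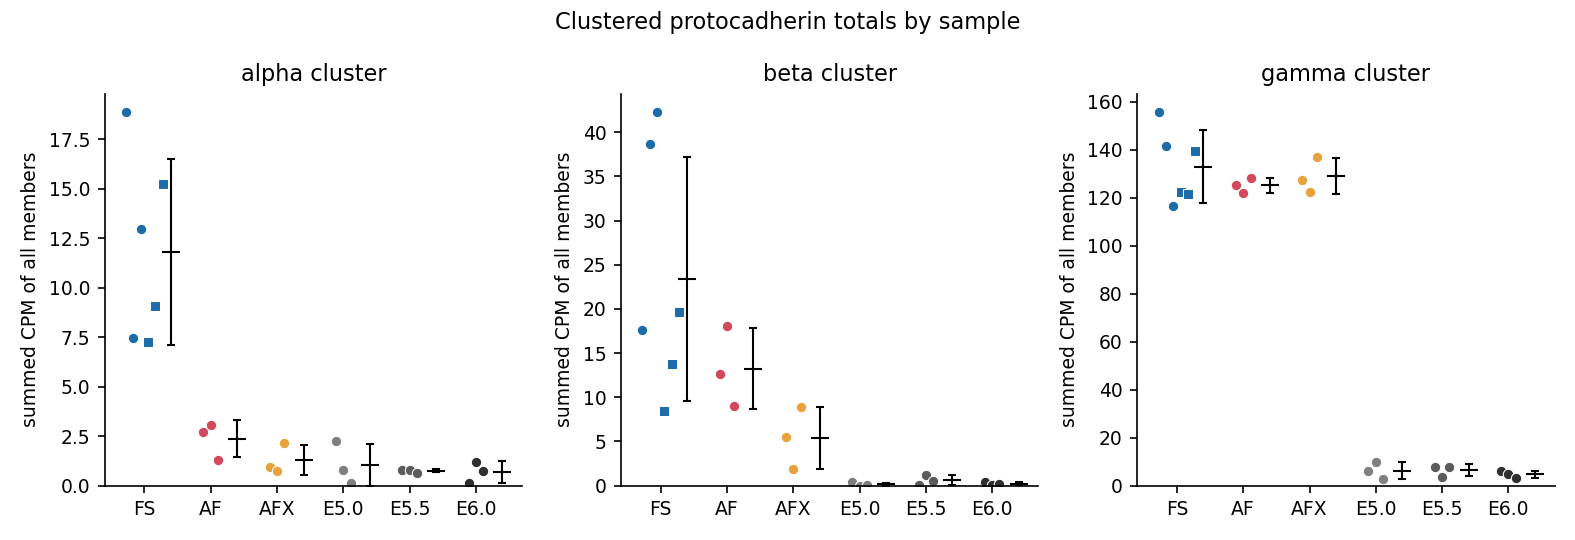
Summed CPM of all alpha, beta and gamma members in each sample (circles; squares for FS line 5cdr2), with the mean and SD of each group as a black bar. The gamma totals of FS, AF and AFX overlap near 130.0 CPM, whereas the alpha totals of FS cells lie above all other samples.

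The number of members read also differed. FS samples had 33 to 48 of the 57 members with at least 5 counts, AF samples 28 to 31, AFX samples 22 to 32 and epiblasts 1 to 6. In every cultured sample 21 of 22 gamma members reached 5 counts, and the exception, Pcdhgb8, had no count in 6 of 6 FS samples. Pcdhb10 had no count in any cultured sample.

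**Figure D2:**
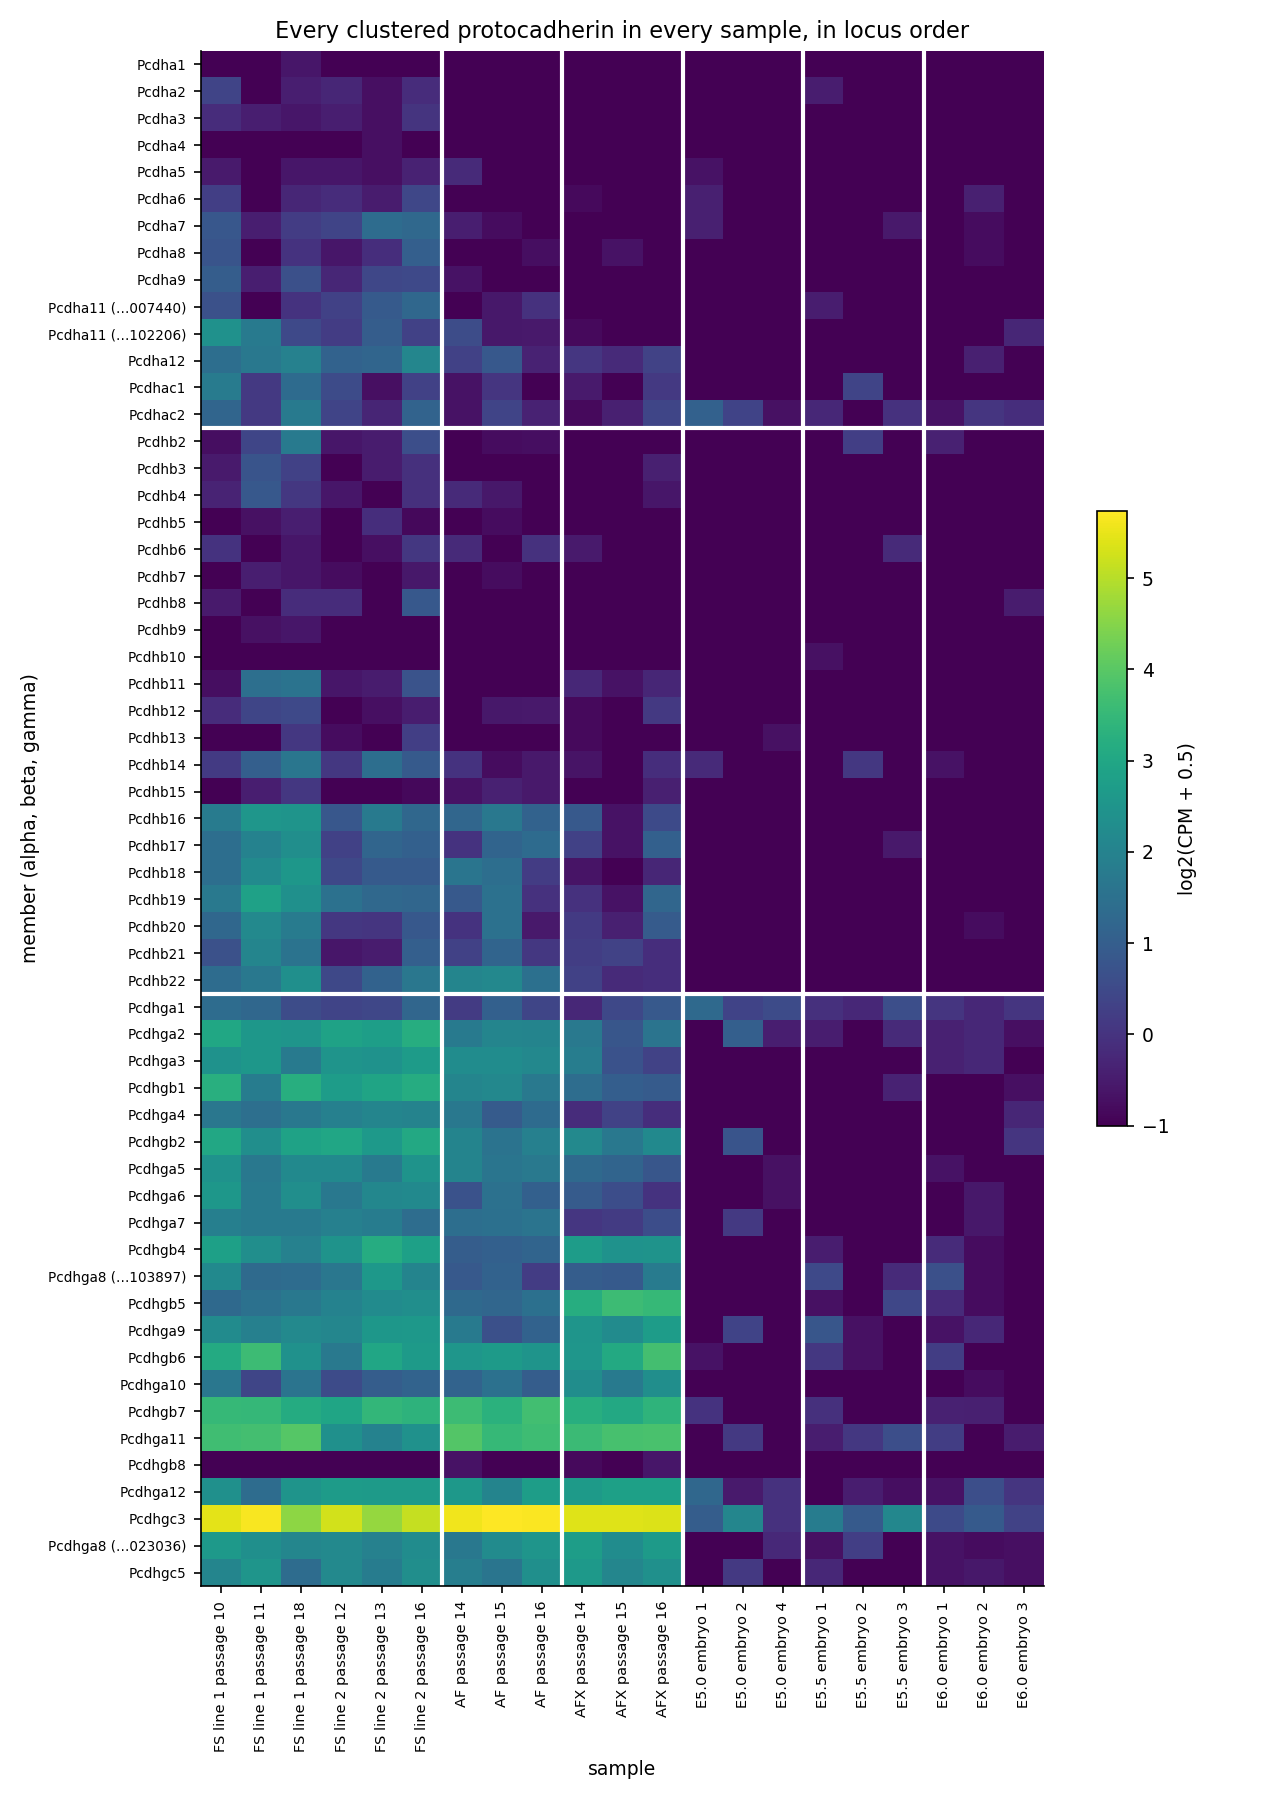
Level of every member, as log2(CPM + 0.5), in locus order from top to bottom, with samples as columns and white lines between clusters and groups. Pcdhgc3 is the brightest row, and Pcdhgb8 is the 1 gamma row that stays dark, with no count in 9 of 12 cultured samples.

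Per kilobase of unshared exon, the C-type isoform Pcdhgc3 had the highest level of all members in every cultured group and in the epiblasts. Its level per kilobase was 10.6 CPM in FS, 14.96 in AF, 12.3 in AFX and 0.559 in epiblasts. The next were Pcdhgb7 (3.68) and Pcdhga11 (3.34) in FS, where Pcdhga11 was second in line 5cdr1 (5.04) and 10th in line 5cdr2 (1.64), Pcdhga11 (4.76) and Pcdhgb7 (4.33) in AF, and Pcdhga11 (4.84) and Pcdhgb7 (3.40) in AFX. In FS cells the 3 highest alpha members per kilobase were Pcdha12 at 1.05, Pcdhac1 at 0.483 and Pcdha7 at 0.473 CPM, and the highest beta members were Pcdhb16 at 0.617 and Pcdhb20 at 0.530 CPM. In CPM not divided by length, Pcdhgb7 was at 9.55 in FS, 11.2 in AF and 8.82 in AFX, Pcdhb16 at 3.22, 2.08 and 0.794, and Pcdhb19 at 3.38, 1.40 and 0.808. Of all gamma counts, Pcdhgc3 took 20.3% to 35.7% in FS samples, 38.1% to 43.1% in AF and 30.0% to 34.1% in AFX. The effective number of gamma members, the number of equally abundant members with the same Shannon entropy, was 11.4 to 16.4 in FS, 9.67 to 10.4 in AF and 10.8 to 11.95 in AFX, so every FS sample spread its gamma counts more widely than every AF sample.

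The first comparison set all cultured cells (the mean of FS, AF and AFX) against all epiblasts (the mean of the 3 stages). Of 57 members, 36 had enough counts to be tested, and 31 of them were higher in the cultured cells: 3 of 6 alpha, 8 of 9 beta and 20 of 21 gamma. None was lower. Among the 5 not called, the fit failed for Pcdhb11 and Pcdha11 (ENSMUSG00000007440), with SEs far above the estimates. Pcdhb11 had no epiblast count and was at least 16.2-fold higher in the pooled cultured cells, and Pcdha11 (ENSMUSG00000007440) had a pooled ratio of 22.8 (6.12 to 192). Neither value holds for every cultured group. AF held no count of Pcdhb11, with a mean of 0.264 CPM for AFX against 1.05 CPM for FS. AFX held no count of this Pcdha11 row, with a mean of 0.213 CPM for AF against 0.925 CPM for FS. The estimate for Pcdha7, which had no count in AFX, was also poorly determined (0.71 ± 2.36, adjusted p = 0.810). Pcdha7 was at 0.613 CPM in cultured cells and 0.0579 CPM in epiblasts, so the missing call says little of it. Among all 16614 genes tested, 33.9% were higher and 27.9% lower. Most of these members passed the filter on low counts through the cultured samples alone, since 1 member, Pcdhgc3, was abundant enough to be tested among the epiblasts, so the count says little beyond the levels themselves. The fit averages over stages, and many members had no count in some stage. Such members are given by their ratio of pooled counts, with an exact 95% interval that covers counting error only. FS, with more samples than AF or AFX, weighs more in the pooled counts than in the fit. Where all epiblasts were at 0, a bound is given. Here and below, an adjusted p printed beside a ratio or bound is that of edgeR's fit, not of the ratio or bound. With the ratios and bounds, the members tested had a median log2 difference of 3.80 for alpha, 5.82 for beta and 5.22 for gamma. The alpha median holds Pcdha7 at its fitted value. Over all genes the median, of fitted values alone, was 0.09. Since 35 of the 36 members passed the filter through the cultured samples alone, these medians are given as a description.

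Pcdhgc3 was at 23.6 to 52.6 CPM in the 12 cultured samples with a median of 41.5, and at 0.480 to 3.82 CPM in the 9 epiblasts with a median of 1.38. All cultured samples were above all epiblasts, and its log2 fold change was 4.62 ± 0.24 (adjusted p = 1.66e-12). The other gamma C-type members did the same at a lower level: the Pcdhgc4 row was at 4.54 ± 1.05 CPM in cultured cells and 0.165 ± 0.225 in epiblasts (log2 fold change 4.78 ± 0.44, adjusted p = 3.79e-09). Pcdhgc5 was at 3.93 ± 1.09 and 0.149 ± 0.200 CPM (4.80 ± 0.48, adjusted p = 1.50e-08). The alpha C-type isoforms were split. Pcdhac1 was higher in cultured cells, with a pooled ratio of 8.51 (3.98 to 21.7) and an adjusted p of 0.0119 in edgeR's fit. That call was lost without AF passage 15, and the 7 epiblast counts of Pcdhac1 came from 1 of 9 epiblasts. Pcdhac2 had 37 counts over the 9 epiblasts, with a count in 8 of them, the most of any alpha member there. It was at 0.489 ± 0.485 CPM in the epiblasts and 0.866 ± 0.842 CPM in cultured cells, and its log2 fold change of 0.43 ± 0.59 was not called (adjusted p = 0.547).

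Among the gamma A and B members, the 4 with the largest fitted differences were Pcdhga10, Pcdhga3, Pcdhgb1 and Pcdhga5. Pcdhga10 had 1 count in the 9 epiblasts, and its pooled ratio was 186 (33.1 to 7352). Pcdhga5 had 2 counts there, with a ratio of 125 (34.5 to 1039). Pcdhga3 was at 3.89 ± 1.65 CPM in cultured cells and had 6 epiblast counts, all of them from E6.0, with a ratio of 51.6 (23.6 to 141). Pcdhgb1 was at 4.84 ± 2.90 CPM and had 4 epiblast counts, none from E5.0, with a ratio of 98.9 (38.4 to 364). These intervals overlap, so the 4 are not ranked against each other. The smallest differences called were 3.58 ± 0.43 for Pcdhga2 (adjusted p = 1.97e-07), 3.74 ± 0.54 for Pcdhga9 (3.02e-06), 3.76 ± 0.39 for Pcdhga12 (2.29e-08) and that of Pcdhga8 (ENSMUSG00000103897), which had no count at E5.0 and a pooled ratio of 9.33 (6.01 to 15.3). Pcdhga1, the first gamma member, was the gamma exception: it was read in 9 of 9 epiblasts and was second per kilobase there, at 0.238 CPM. Its levels of 1.17 CPM in cultured cells and 0.773 CPM in epiblasts were not called different (log2 fold change 0.57 ± 0.38, adjusted p = 0.203).

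The beta members called were Pcdhb14 and the run from Pcdhb16 to Pcdhb22. Pcdhb16, Pcdhb18, Pcdhb19, Pcdhb21 and Pcdhb22 had no count in any of the 9 epiblasts. Against a floor of 3 counts over the group they were at least 59.5-fold, 44.3-fold, 56.8-fold, 30.1-fold and 56.7-fold higher in the pooled cultured cells. Pcdhb18 overlapped with the epiblasts, since AFX passage 15 had no count of it. Its mean was 2.55 CPM in FS and 1.81 in AF but 0.156 in AFX. Pcdhb17 and Pcdhb20 had 1 to 3 epiblast counts, with pooled ratios of 68.8 (18.8 to 571) and 107.5 (19.1 to 4269). Pcdhb14, at 0.849 ± 0.874 and 0.120 ± 0.211 CPM, was called at an adjusted p of 0.0395 and was lost in 10 of 26 alternatives. Of the alpha members, Pcdha12 had 3 counts in epiblasts and a pooled ratio of 45.3 (15.3 to 221), with an adjusted p of 3.40e-06 in edgeR's fit. Pcdha11 (ENSMUSG00000102206) had a pooled ratio of 25.2 (8.45 to 124) and an adjusted p of 0.0251 in that fit, a call lost without AFX passage 14. Its ratio rests mostly on FS, at 1.89 CPM, with AF at 0.449 CPM. AFX, at 0.0224 CPM, was not above the epiblasts, at 0.0355 CPM. In bulk samples, fewer cells that express a gene and less RNA per cell cannot be told apart, and culture, line, cell number and collection differ together in this comparison.

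Genes that act on the clusters were set beside the members. Among all genes tested 33.9% were higher and 27.9% lower in cultured cells, and each list count of this comparison stands against those shares. The list of 13 silencing and methylation genes had 10 lower and 1 higher in cultured cells (median log2 fold change -0.52). Dnmt3b, a de novo DNA methyltransferase, was at 1547 ± 326 CPM in FS, 785 ± 212 in AF and 1233 ± 150 in AFX, against 2784 ± 93.8 at E5.0, 4168 ± 203 at E5.5 and 5190 ± 608 at E6.0, with no overlap (-1.78 ± 0.13, adjusted p = 1.37e-11). Dnmt3a, the other de novo enzyme, was at 199, 172 and 196 CPM in the cultured groups against 643, 605 and 561 in the stages (-1.68, adjusted p = 2.03e-13). Dnmt3l, their cofactor without enzyme activity, had a log2 fold change of -5.397 (adjusted p = 2.18e-08), whereas Tet2, which oxidises methylcytosine, was higher by 1.94 (adjusted p = 7.32e-05). Smchd1 was lower by a small amount (-0.19, adjusted p = 0.00531), from 164 to 304 CPM in the stage means and 180 to 217 CPM in the cultured groups, which overlap. Of 11 CTCF and cohesin genes, 2 were higher and 5 lower (median -0.05), but the call of Smc3 (-0.13) was lost in 22 of 27 alternatives and that of Rad21 (0.15) in 8 of 27. The falls were led by Ctcf, Pds5a (-0.50, adjusted p = 3.59e-08), a cohesin regulator, and Stag2 (-0.44, 0.000533), a cohesin subunit. Ctcf itself was at 131 to 148 CPM in the cultured group means and 205 to 249 CPM in the stages (-0.67, adjusted p = 2.92e-08).

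The non-clustered delta protocadherins, relatives encoded outside these clusters, had 8 of 11 genes tested, with 5 higher and 1 lower in cultured cells. Pcdh7 was higher by 4.21 (adjusted p = 3.75e-09), Pcdh11x by 3.94 (4.78e-05) and Pcdh8 by 2.03 (0.00888), while Pcdh1 fell by 0.71 (2.28e-07). Of 15 genes for proteins that process clustered protocadherins or bind them, 6 were higher and 1 lower, against 33.9% and 27.9% of all genes. The highest among these were Cyfip2, a subunit of the WAVE actin regulator, at 1.56 (adjusted p = 1.58e-06), the kinase Fyn at 0.91 (1.03e-07) and the shedding protease Adam10 at 0.84 (9.95e-08). Axin1 fell by 0.63 (adjusted p = 3.34e-07). Markers of neurons summed to 156 to 270 CPM in the cultured samples and 36.3 to 94.1 CPM in epiblasts, with 7 of 10 higher and 1 lower. The neural progenitor list summed to 309 to 492 CPM and 97.7 to 216 CPM, with 4 of 8 tested genes higher and 1 lower. The visceral endoderm list, the tissue around the epiblast, ran from 25.7 to 834 CPM in epiblasts and 7.25 to 93.8 CPM in cultured cells, with 8 of 10 tested genes lower. The fibroblast list summed to 33.9 to 288 CPM in cultured samples and 14.97 to 32.1 CPM in epiblasts, with 5 of 8 tested genes higher and 2 lower and Postn without a count in the epiblasts. The part of these cell types in the protocadherin levels was not tested. All 8 epiblast and pluripotency markers had counts in every group, but their sums did not overlap, at 748 to 1066 CPM in cultured cells and 1285 to 1641 CPM in epiblasts, with 2 of 8 higher and 4 lower in cultured cells. The part of this change was not tested either.

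The second comparison, AFX against AF, sets a change of medium within EpiSCs named for the same line. Of 37 members tested, 3 were higher and 4 lower in AFX, against 4.30% of 16052 genes higher and 4.42% lower. The members moved in both directions within the gamma cluster while the gamma total differed 1.03-fold between the group means. Of the members called, Pcdhgb5 rose most. It was at 8.65, 11.7 and 10.8 CPM in AFX at passages 14, 15 and 16, and at 1.97, 1.85 and 2.32 CPM in AF. The groups did not overlap, and the log2 fold change was 2.33 ± 0.33 (adjusted p = 0.000955). Pcdhgb4 was at 6.10, 4.87 and 4.99 CPM in AFX and 1.48, 1.58 and 1.76 CPM in AF (1.72 ± 0.34, adjusted p = 0.00711). Pcdhga9 was at 5.17, 4.25 and 6.07 CPM in AFX and 2.84, 1.05 and 1.67 CPM in AF (log2 fold change 1.498 ± 0.36, adjusted p = 0.0182). Its groups did not overlap either, but its call was lost without AF passage 15, AF passage 16 or AFX passage 16.

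Pcdhga4 and Pcdhga7 fell in AFX. Pcdhga4 was at 0.402, 0.750 and 0.416 CPM in AFX and at 2.71, 1.41 and 2.04 CPM in AF, with no overlap (-1.997 ± 0.43, adjusted p = 0.0101). Pcdhga7 was at 0.537, 0.6249 and 0.997 CPM in AFX and 2.22, 2.29 and 2.50 CPM in AF (-1.69 ± 0.37, adjusted p = 0.0117), and its call was lost without AFX passage 14. Of the beta members, Pcdhb22 was at 0.738, 0.375 and 0.416 CPM in AFX and 3.70, 3.96 and 2.32 CPM in AF (-2.64 ± 0.57, adjusted p = 0.0104). Pcdhb18 was at 0.134, 0 and 0.332 CPM in AFX and 2.59, 2.20 and 0.649 CPM in AF (-3.33 ± 0.92, adjusted p = 0.0350). The Pcdhb18 call was lost without any 1 of AF passages 14 and 15 and AFX passages 14 and 15. With AF and AFX fitted alone, 24 members could be tested and 3 were called. The calls of Pcdhga4, Pcdhga7 and Pcdhga9 were lost, and Pcdhb18 could not be tested, since it passed the filter only through the FS samples.

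**Figure D3:**
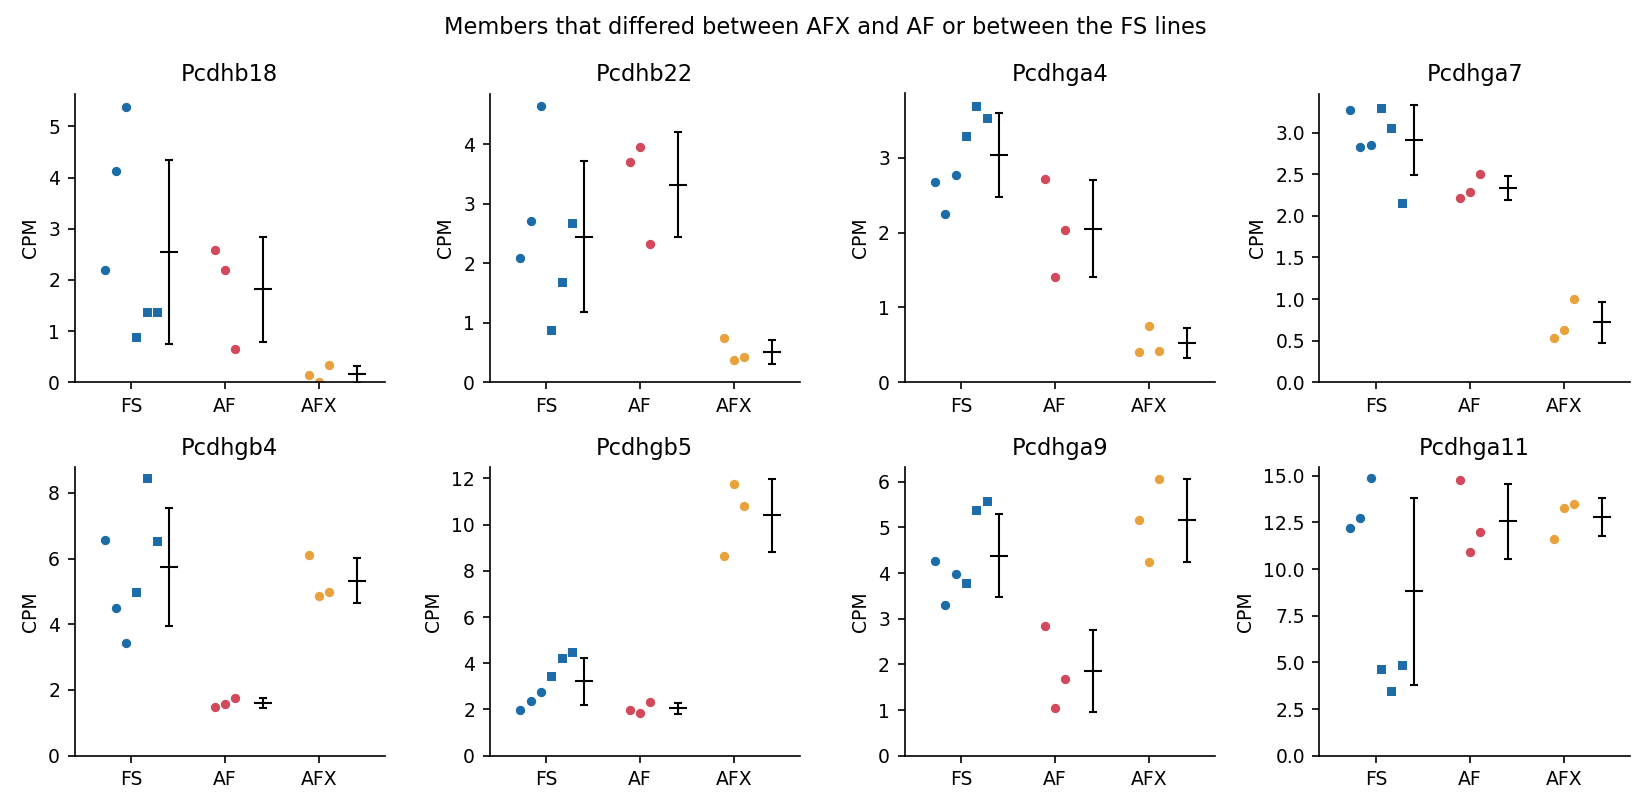
CPM in each FS, AF and AFX sample (circles; squares for FS line 5cdr2) of the 7 members called between AFX and AF and of Pcdhga11, with group mean and SD as black bars. Pcdhgb5 stands at 8.65 CPM or more in AFX alone, Pcdhgb4 and Pcdhga9 are low in AF, and Pcdhga11 is split between the FS lines.

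The direction of the gamma differences between AFX and AF mostly split by place in the locus, though few of them were called. Of the first 9 gamma members in the locus, Pcdhga1 to Pcdhga7, 8 had a log2 fold change below 0 and 1, Pcdhgb2, above it, with a median of -0.84. Of the next 10 members, Pcdhgb4 to Pcdhga12, 9 could be tested, and 8 were above 0 and 1 below, with a median of 0.67. Called were 2 of the first 9, both lower, and 3 of the next 10, all higher. The members just inside and just outside this break were Pcdhga7 at -1.69 and Pcdhgb4 at 1.72. The break was placed after the values were seen, so the sides are described without a test. The 3 gamma C-type members at the end of the cluster lay between -0.29 and 0.46 and none was called.

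**Figure D4:**
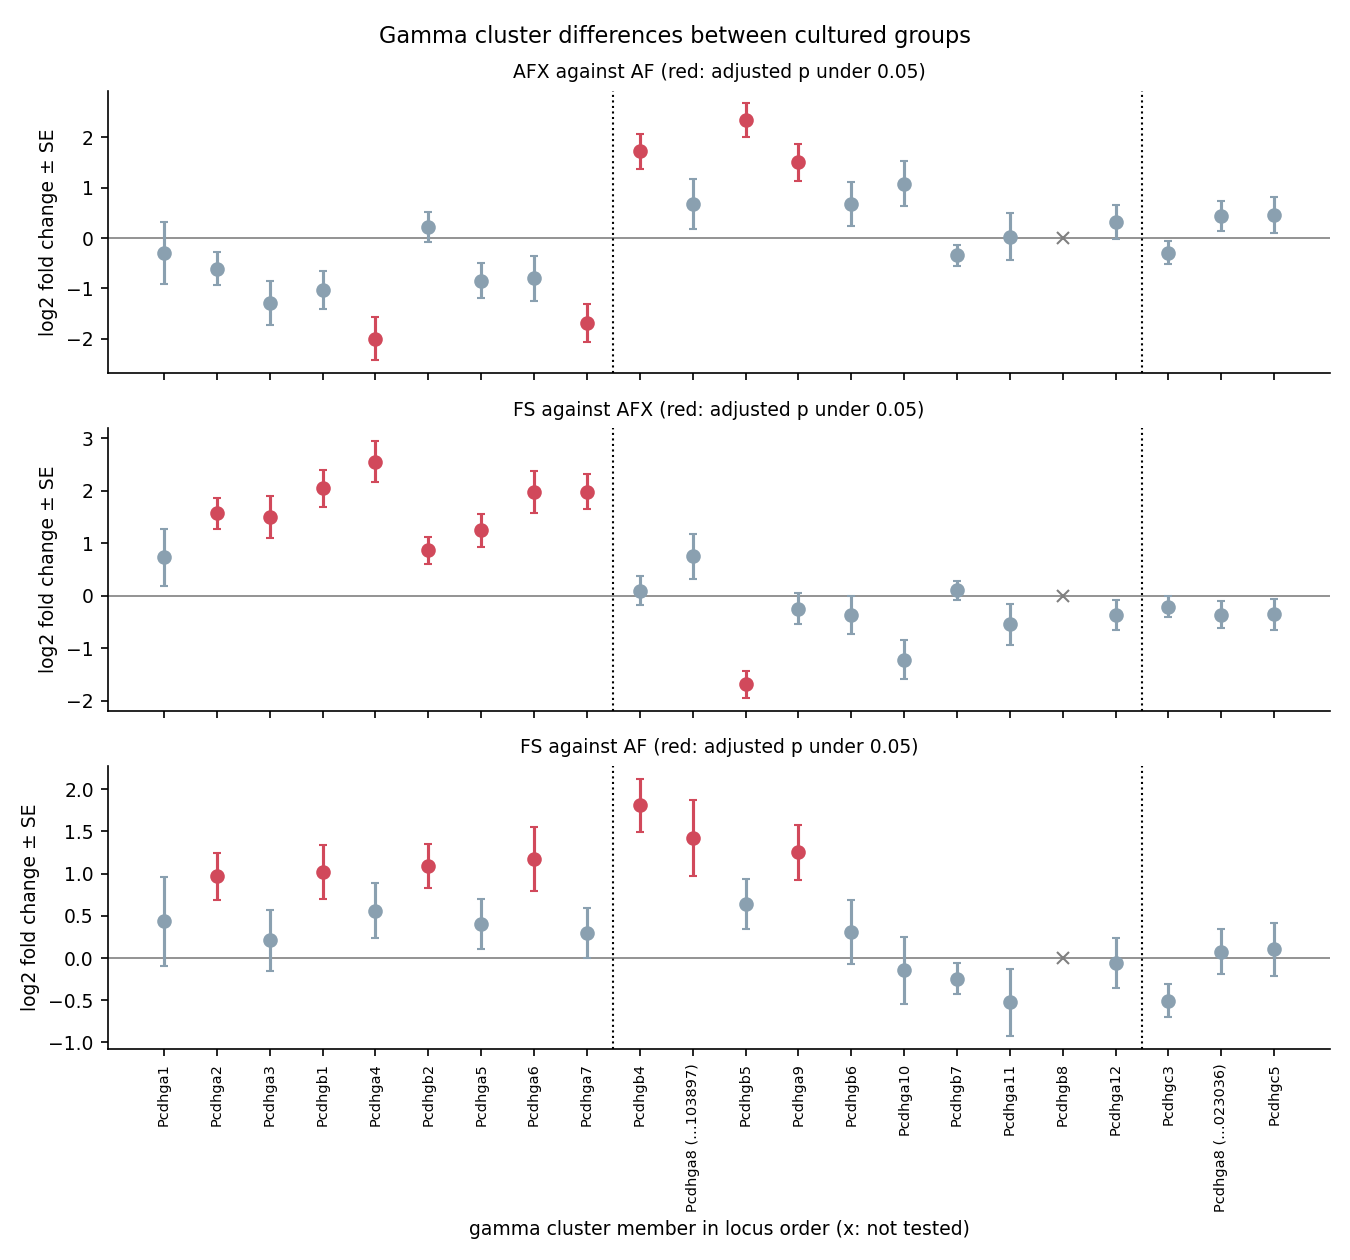
Log2 fold change with SE of each gamma member in locus order for AFX against AF, FS against AFX and FS against AF, with called members in red, the untested Pcdhgb8 as a cross at 0 and dotted lines after the 9th member and before the C-type members. In the upper panel 8 of the first 9 members lie below 0 and 8 of the next 9 tested lie above it.

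The same can be given as a share of each sample's own counts, which does not depend on library scaling. Members 1 to 9 supplied 22.5% (exact 95% binomial interval 20.1 to 25.1), 16.03% (13.1 to 19.3) and 15.5% (13.3 to 17.9) of the gamma A and B counts in AFX at passages 14, 15 and 16. In AF they supplied 34.4% (30.6 to 38.4), 39.2% (35.6 to 42.9) and 34.9% (31.4 to 38.4). In the FS samples the share was 38.1% to 52.2% with a median of 45.4%. AFX lay below every AF and FS sample, while FS and AF overlapped. Because the break was chosen from these AFX and AF values, a lower AFX share was built in and is not separate evidence. Epiblasts had 12 to 43 gamma A and B counts each, and their shares, from 15.4% to 75.0%, had intervals too wide to set beside these. The intervals cover counting error only.

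**Figure D5:**
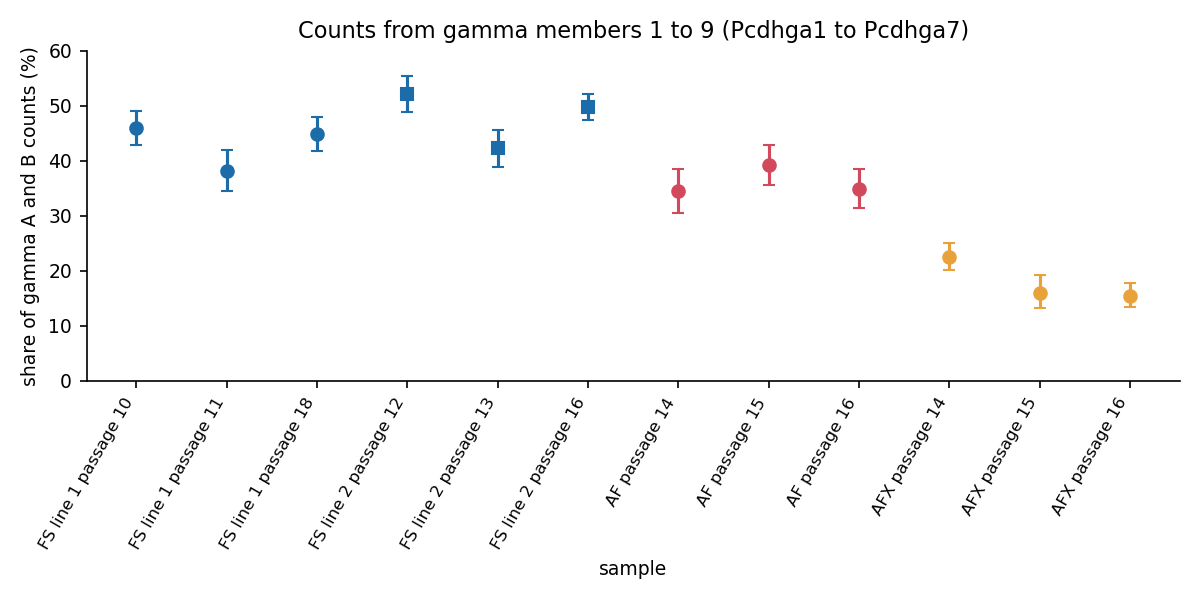
Share of gamma A and B counts that came from the first 9 gamma members, in percent, for each cultured sample with its exact 95% binomial interval. The 3 AFX samples sit between 15.5% and 22.5%, below the AF samples at 34.4% to 39.2% and the FS samples at 38.1% to 52.2%. The first 9 members were set apart after the AFX and AF values were seen.

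Of 7 alpha members, 2 had an unadjusted p under 0.05, and neither passed the adjustment. Both were rows of Pcdha11: ENSMUSG00000007440 had no count in AFX and was at least 2.69-fold lower there (adjusted p = 0.225). ENSMUSG00000102206 had 1 count in AFX and 12 in AF, a pooled ratio of 13.9-fold lower (2.05 to 592), with an adjusted p of 0.165 in edgeR's fit. Ctcf (0.17, adjusted p = 0.569), Smchd1 (-0.09, adjusted p = 0.732), Dnmt3a (0.19, adjusted p = 0.568) and Dnmt3b (0.65, adjusted p = 0.0877) were not called. The cohesin genes Nipbl, the loader, and Rad21, the ring's cleavable subunit, were higher in AFX by 0.57 (adjusted p = 0.00695) and 0.41 (0.0229), and the call of Rad21 was lost without AF passage 16 or any 1 AFX sample. Of the delta protocadherins, Pcdh1 alone of 8 tested was called, higher in AFX by 0.66 (adjusted p = 0.0140) and lost without AFX passage 15. Markers of other cells moved with the medium: the fibroblast list summed to 241 to 288 CPM in AF and 44.5 to 69.0 CPM in AFX (6 of 8 tested genes lower in AFX, 1 higher, and all 9 listed genes read in both), and the visceral endoderm list to 61.4 to 93.8 and 12.7 to 25.1 CPM. Afp and Apoa4 had no count in either medium. The extraembryonic ectoderm list summed to 17.5 to 29.7 CPM in AF and 5.37 to 8.32 CPM in AFX, with no count of Elf5 or Esx1 in either. Neuron markers summed to 156 to 204 CPM in AF and 231 to 270 CPM in AFX, with 4 of 10 higher. Their part in the protocadherin differences was not tested.

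FS cells were compared with AF next. Of 37 members tested, 12 were higher in FS and none lower, against 8.86% of all genes higher and 10.6% lower. The members called were 3 of 7 alpha, 2 of 9 beta and 7 of 21 gamma. The filter on low counts bears on these numbers: 24 of the 37 could be tested with AF and AFX alone, and 13 passed through the FS samples where they are high. Of the 12 calls, 7, all gamma, were among the 24 and 5, all alpha or beta, were among the 13, so the shares and medians are given as a description. The medians were 2.11, 0.69 and 0.41 for the 3 clusters, against 0.02 over all genes. The 20 members that were not tested had too few counts in the cultured samples, among them 7 alpha, 12 beta and Pcdhgb8.

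Pcdhgb4 was the firmest of these. It was at 3.42 to 8.44 CPM in FS with a median of 5.76, above all AF samples (log2 fold change 1.81 ± 0.31, adjusted p = 0.000968), and it kept its call in 21 of 21 alternatives. Pcdhgb2 was at 4.49 to 7.79 CPM in FS with a median of 7.16, against 3.58, 2.46 and 3.34 CPM in AF, with no overlap (1.09 ± 0.26, adjusted p = 0.00886), and its call held without any 1 sample. Pcdhga2 was at 5.21 to 8.70 CPM in FS with a median of 6.62, against 2.84, 3.69 and 3.62 CPM in AF (0.97 ± 0.28, adjusted p = 0.0248). Pcdhga9 was at 3.31 to 5.57 CPM in FS with a median of 4.13, above its AF values (1.25 ± 0.33, adjusted p = 0.0144). Pcdhga8 (ENSMUSG00000103897), at 1.42 ± 0.45 (adjusted p = 0.0370), Pcdhga6, at 1.17 ± 0.38 (0.0412), and Pcdhgb1, at 1.02 ± 0.32 (0.0373), completed the gamma members. Of these 3, Pcdhgb1 overlapped between the groups. The calls of Pcdhga2, Pcdhga6, Pcdhga8 and Pcdhgb1 were all lost without any 1 of FS line 2 passage 16, AF passage 14 and AF passage 16. Those of Pcdhga6, Pcdhga8 and Pcdhgb1 were also lost without FS line 1 passage 10 or FS line 2 passage 13, those of Pcdhga6 and Pcdhgb1 without FS line 1 passage 18, that of Pcdhgb1 without AF passage 15 and that of Pcdhga6 without AFX passage 15, which shares the fit. The call of Pcdhga9 was lost without AF passage 15 or 16.

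The alpha members were near the floor in AF. Pcdha12 was at 1.69 to 3.75 CPM in FS with a median of 2.45, and at 0.740, 1.32 and 0.278 CPM in AF, with no overlap (1.71 ± 0.49, adjusted p = 0.0227). Pcdha9 and Pcdha7 had 1 to 3 counts over the AF samples, and their pooled ratios were 25.0 (4.31 to 1003) and 12.5 (4.13 to 61.7). The adjusted p of edgeR's fit was 0.0171 for Pcdha9 and 0.0239 for Pcdha7, and Pcdha7 overlapped between the groups. Of the beta members, Pcdhb14 was at 0.562 to 2.61 CPM in FS with a median of 1.45, and at 0.493, 0.0879 and 0.186 CPM in AF (2.56 ± 0.80, adjusted p = 0.0353). Pcdhb11 had no count in AF and was at least 10.6-fold higher in FS, at 0.0992 to 2.44 CPM (adjusted p = 0.0248). The call of Pcdha12 was lost without FS line 2 passage 16, AF passage 14 or AF passage 16, and that of Pcdhb14 without FS line 1 passage 18, FS line 2 passage 13 or 16, or AF passage 15 or 16. Pcdha7 and Pcdha9 lost theirs without AF passage 15 or 16, and Pcdhb11 without any 1 AF sample. The C-type isoforms were not called: Pcdhgc3 was at 36.0 ± 10.52 CPM in FS against 50.6 ± 2.55 in AF (-0.50 ± 0.20, adjusted p = 0.0909), Pcdhac1 at 1.24 and 0.217 CPM (adjusted p = 0.125) and Pcdhac2 at 1.34 and 0.398 CPM (adjusted p = 0.169). The Pcdhgc4 row and Pcdhgc5 had adjusted p of 0.885 and 0.858. Pcdhgc3 was called lower in FS without FS line 1 passage 11 (-0.64, adjusted p = 0.0199) and with line 5cdr2 alone (-0.65, adjusted p = 0.0104), and Pcdhga11 was called lower with line 5cdr2 alone (-1.55, adjusted p = 0.000518) and with the lines as separate groups (-0.73, adjusted p = 0.00563).

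The number of calls rested on single samples, since it was 2 without AF passage 16, 3 without FS line 2 passage 16, 6 without AF passage 15, and 7 without FS line 1 passage 18, FS line 2 passage 13 or AF passage 14. It was 2 with line 5cdr1 alone, both higher, and 9 with line 5cdr2 alone, of which 7 were higher and 2 lower. Of the silencing list, 3 of 13 were higher in FS and none lower: Dnmt3b by 0.97 (adjusted p = 0.00345), Tet1 by 0.60 (0.00262) and Setdb1 by 0.55 (0.00780). Dnmt3a (0.20, adjusted p = 0.372), Smchd1 (0.17, adjusted p = 0.234) and Ctcf (0.10, adjusted p = 0.646) were not called, and Smc3, a cohesin ring subunit, was higher by 0.33 (adjusted p = 0.0202), a call lost without AF passage 15 or 16. The delta protocadherins went mostly the other way, with 1 higher, Pcdh1 (0.55, adjusted p = 0.00963), and 4 lower. The largest falls were Pcdh17 (-2.56, adjusted p = 0.0134), Pcdh8 (-2.23, 0.0461) and Pcdh7 (-1.60, 0.000174). The Pcdh7 call held in 21 of 21 alternatives, that of Pcdh17 was lost without AF passage 14, and that of Pcdh8 was lost in 11 of 21, among them the omission of any 1 AF sample. Of the partner genes, 4 of 15 were lower, with Ret, a receptor kinase that alpha and gamma proteins bind, at -2.20 (adjusted p = 0.0463), Adam10 at -0.45 (0.0307) and Ncstn, a gamma-secretase subunit, at -0.44 (0.00892). The calls of Ret and Adam10 were lost in 10 of 20 and 6 of 21 alternatives, among them the omission of FS line 1 passage 18, FS line 2 passage 12 or 16, or AF passage 16. Fibroblast markers summed to 33.9 to 68.5 CPM in FS, below AF in every sample (6 of 8 tested genes lower, Lum without a count in FS), and visceral endoderm markers to 7.25 to 12.9 CPM (4 of 4 lower, with Afp, Ttr, Apoa4 and Hnf4a without a count). Neuron markers, at 196 to 253 CPM in FS and 156 to 204 CPM in AF, had 5 of 10 higher. The part of these in the protocadherin differences was not tested.

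FS cells against AFX gave more calls. Of 37 members tested, 16 were higher in FS and 1 lower, against 3.78% of all genes higher and 4.92% lower. The members higher were 5 of 7 alpha, 3 of 9 beta and 8 of 21 gamma. Of these 16, 9 were among the 24 members that could be tested in AF and AFX alone, and 7, all 5 alpha and 2 of the beta members, passed the filter only through FS. Since these FS samples were also set against AF, and AFX was also set against AF, the 3 comparisons share samples and their calls are not independent of each other. The alpha median was 5.58, or 3.26 with members of 0 to 3 counts at their bound, and the beta and gamma medians were 1.91 and 0.10, against 0.004 over all genes.

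All 8 gamma members higher in FS were among the first 9 of the cluster, a split chosen from AFX values that this comparison shares. The other member of those 9, Pcdhga1, had a log2 fold change of 0.73 ± 0.54 (adjusted p = 0.464). The largest was Pcdhga4, at 2.24 to 3.69 CPM in FS with a median of 3.03, above all AFX samples (2.56 ± 0.39, adjusted p = 0.000770). Pcdhgb1 was at 3.07 to 8.93 CPM in FS with a median of 7.85, and at 2.15, 1.4998 and 1.41 CPM in AFX, with no overlap (2.05 ± 0.35, adjusted p = 0.00167). Pcdhga7 and Pcdhga6 followed at 1.99 ± 0.34 (adjusted p = 0.00174) and 1.97 ± 0.40 (0.00629). The smallest were Pcdhgb2 at 0.87 ± 0.26 (adjusted p = 0.0481), Pcdhga5 at 1.25 ± 0.31 (0.0201) and Pcdhga3 at 1.503 ± 0.39 (0.0266), whose groups overlapped. The call of Pcdhgb2 was lost in 13 of 21 alternatives, among them the omission of any 1 AFX sample. The calls of Pcdhga3 and Pcdhga5 were lost without AFX passage 15 or 16, and that of Pcdhga3 also without FS line 2 passage 16. Pcdhgb5, which had the largest rise in AFX over AF among the members called, was the 1 member called lower in FS. It was at 1.98 to 4.49 CPM in FS with a median of 3.11, below all 3 AFX samples (-1.69 ± 0.26, adjusted p = 0.000864), and kept its call in 21 of 21 alternatives. Pcdhga10 (-1.22 ± 0.37, adjusted p = 0.0554) was called lower by DESeq2, without FS line 1 passage 10 or 18 or AF passage 15, with the lines as separate groups and with line 5cdr2 alone. Pcdhga11 was called lower with the lines as separate groups and with line 5cdr2 alone, where the log2 fold change was -1.57 (adjusted p = 0.000991).

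In AFX the alpha members Pcdha7, Pcdha9 and Pcdha11 (ENSMUSG00000007440) had no count, and they were at least 14.4-fold, 9.60-fold and 11.9-fold higher in FS (adjusted p = 0.00798, 0.0114 and 0.0284). The last of these calls was lost on omitting any 1 AFX sample. Pcdha11 (ENSMUSG00000102206) had a pooled ratio of 58.6 (10.3 to 2334), with an adjusted p of 0.00862 in edgeR's fit. Pcdha12, at 0.537, 0.375 and 0.748 CPM in AFX, was higher in FS by 2.18 ± 0.50 (adjusted p = 0.0132). That call was lost without AFX passage 14 or 15. Of the beta members, Pcdhb18 was higher by 3.82 ± 0.85 (adjusted p = 0.0110), Pcdhb14 by 2.84 ± 0.80 (0.0387) and Pcdhb22 by 2.19 ± 0.52 (0.0159). Pcdhb18 was lost without AFX passage 14, Pcdhb22 without AFX passage 15 or 16, and Pcdhb14 without FS line 1 passage 18, FS line 2 passage 13 or 16, or AFX passage 14 or 15. The number of calls fell to 10 without AFX passage 15 and to 11 without FS line 2 passage 16. None of the C-type isoforms was called, with adjusted p from 0.205 for Pcdhac2 to 0.585 for Pcdhgc3. Lower in FS were 2 of 11 CTCF and cohesin genes, 2 of 8 delta protocadherins tested and 1 of 15 partner genes, against 4.92% of all genes. No gene of these lists was higher, and 0 of 13 silencing genes were called. The fibroblast and neuron lists overlapped between FS and AFX in their sums, with 3 of 8 lower and with 2 of 10 higher and 1 lower. The visceral endoderm list summed to 7.25 to 12.9 and 12.7 to 25.1 CPM, with 1 of 4 tested genes lower in FS. Their part was not tested.

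In the main edgeR fit the 2 FS lines differed at 1 member. Pcdhga11 was at 12.2, 12.8 and 14.9 CPM in line 5cdr1 at passages 10, 11 and 18, and at 4.66, 3.48 and 4.83 CPM in line 5cdr2 at passages 12, 13 and 16. The log2 fold change of 5cdr2 over 5cdr1 was -1.63 ± 0.21 (adjusted p = 0.000229), and it kept its call in 12 of 12 alternatives. The AF samples, at 14.8, 10.9 and 11.97 CPM, and the AFX samples, at 11.6, 13.2 and 13.5 CPM, lay near line 5cdr1, and all 6 were above every sample of line 5cdr2. Among all genes 1.20% were lower and 2.65% higher in 5cdr2. Of 13 silencing genes 1 was higher and 1 lower in 5cdr2, and of 8 delta protocadherins tested 1 was higher and 1 lower. The members on either side of Pcdhga11 in the locus that could be tested were not called, with Pcdhgb7 at -0.14 ± 0.22 (adjusted p = 0.806) and Pcdhga12 at 0.53 ± 0.31 (0.416).

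All 9 beta members tested had lower fitted levels in line 5cdr2, with a median of -1.33 and 5 at an unadjusted p under 0.05, but none was called in the main edgeR fit or by DESeq2. With no filter, or with the 2 lines fitted alone, edgeR called 3 members lower in 5cdr2, and 2 without FS line 2 passage 16. Pcdhga11 was among them each time. The others are not named here and may be beta members. The largest of these was Pcdhb20 at -1.85 ± 0.74 (adjusted p = 0.201). The beta total was 17.6, 38.6 and 42.3 CPM in line 5cdr1 and 8.44, 13.8 and 19.7 CPM in line 5cdr2, and the lines overlapped. Across the 57 members, log2(CPM + 0.5) of 2 samples had a Pearson correlation of 0.840 to 0.902 within line 5cdr1, 0.924 to 0.947 within 5cdr2, 0.933 to 0.951 within AF and 0.947 to 0.968 within AFX, against 0.809 to 0.928 between the FS lines and 0.827 to 0.921 between AF and AFX. These correlations are across genes that share a library and a locus and are given as a description.

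Between epiblast stages Pcdhgc3 was the 1 member with enough counts for the test. It was at 1.49, 3.73 and 0.480 CPM at E5.0, 3.05, 1.38 and 3.82 CPM at E5.5 and 0.919, 1.38 and 0.745 CPM at E6.0, and each pair of stages overlapped. Its log2 fold change was 0.56 ± 0.77 for E5.5 against E5.0 (adjusted p = 0.723), -1.42 ± 0.78 for E6.0 against E5.5 (0.362) and -0.86 ± 0.80 for E6.0 against E5.0 (0.486). So 0 of 1 member tested was called in each by edgeR's test, and also 0 at an unadjusted p under 0.05, 0 by DESeq2 and 0 of 39 without a filter on low counts, against 6.82%, 4.43% and 21.8% of 14228 genes. The 9 epiblasts held 66 alpha, 28 beta and 441 gamma counts in all, and 18 of 57 members had none, so little can be read of most members at this depth. Pcdhga1, Pcdhga11 and Pcdhga12, too low for the test, were singled out after their values were seen. Pcdhga1 was at 1.99, 0.785 and 0.959 CPM at E5.0, 0.452, 0.344 and 1.03 CPM at E5.5 and 0.525, 0.346 and 0.532 CPM at E6.0. The values of the earliest and the last stage did not overlap. No share of all genes without overlap is at hand to set beside this, and most members had too few counts to separate, so it is given as a description. Pcdhga12 had 20, 3 and 18 counts in the 3 stages in turn, a pooled ratio of 8.78-fold lower (2.60 to 46.1) from E5.0 to E5.5. Of the 20 counts at E5.0, 15 came from embryo 1. Pcdhga11 had 3, 18 and 7, a ratio of 4.56-fold higher (1.33 to 24.2) at E5.5 than at E5.0, and 11 of the 18 came from E5.5 embryo 3. Both members overlapped between those stages, and the intervals cover counting error only, not the spread between epiblasts. The visceral endoderm list summed to 288 to 834 CPM at E5.0 and 25.7 to 32.4 CPM at E6.0, and its part in these levels was not tested.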

How the data were processed

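The authors deposited 1 table of read counts per gene for all 21 samples. Per the submitters' processing notes, the tools include Trim Galore, TopHat2 2.1.0 and featureCounts 1.5.0 with build mm10; their roles, the annotation, the strand setting and the handling of shared reads are not given in the sources used here. Per the labels, cultured samples held 1000 cells and epiblasts were collected individually.

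Counts were fitted with edgeR 4.0.16 (quasi-likelihood, TMM, filterByExpr) in R 4.3.3. The AF, AFX and FS samples (FS as 1 group) shared a fit, as did the 3 epiblast stages, the 2 FS lines with the EpiSCs, and all 21 samples for cultured cells against epiblasts. Adjusted p-values (Benjamini-Hochberg) cover all genes tested, and 0.05 was the threshold. The fit was tested on simulated data. DESeq2 1.42.0 with its Wald test was an alternative, beside other size factors, all genes kept, only genes averaging 5 CPM or more, omission of 5 rRNA-like loci, each sample left out, other groupings of the FS lines and a replicate block. Fitted fold changes of members with 0 to 3 counts in a group, or with an epiblast stage at 0, were replaced by a bound from 3 counts over that group or by a ratio of pooled counts with an exact 95% interval. Intervals and floors cover counting error only, and adjusted p-values printed beside them are those of the edgeR fit. Positions come from GENCODE M21, matched by gene identifier.

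Named were all members called (where over 8 of 1 cluster passed, the 4 largest and 4 smallest log2 fold changes), the 3 members of each cluster with the highest mean CPM, the 5 C-type isoforms, at most 3 genes a direction of each list, and Ctcf, Smchd1, Dnmt3a and Dnmt3b. The list genes, and Ctcf, Smchd1, Dnmt3a and Dnmt3b, were given for some comparisons only. A list gene left unnamed may still have been called. The members and lists were chosen with earlier results of these data known. AF and AFX samples of the same passage number were not treated as pairs, except in the replicate block.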

Additional observations from a re-analysis of the deposited data

Results flagged for a closer look

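Among the 6 FS samples, 38 levels were examined for a sample far from the rest, and 2 were found, where chance gives about 1 in 20. Pcdhga12 was at 2.13 CPM in FS line 1 passage 11, against 4.66 to 5.95 CPM in the other FS samples. Pcdhga3 was at 2.85 CPM in FS line 1 passage 18, against 4.85 to 6.03 CPM in the others. In both, the gap to the nearest sample took more of the group's range than Dixon's 95% critical value allows.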

How the results depend on the processing

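Among the members called, none changed sign under any alternative run, but further members were called lower in FS under some. The number called moved with the samples, the filter and the grouping. With a mean of at least 5 CPM, 5 members were called in FS against AF, 5 in FS against AFX, 3 in AFX against AF and 12 in cultured cells against epiblasts, since fewer members were tested. With FS line 1 alone the counts were 2 against AF and 11 against AFX, and with FS line 2 alone 9 (7 higher, 2 lower) and 12 (9 higher, 3 lower). With AF and AFX fitted alone, or with a replicate block, 3 members were called between them. Same-numbered AF and AFX samples had correlations of -0.12, -0.09 and 0.20 in their deviations from the group means, against -0.26 to 0.30 for other pairs. With 3 samples a group this cannot exclude that same-numbered passages were handled together. They were not treated as pairs outside the block. The block called 0 members between epiblast stages. Between the FS lines 3 were called with no filter and 3 with the lines alone. Leaving out 1 sample gave 2 to 12 calls for FS against AF, 10 to 20 for FS against AFX, 5 to 8 for AFX against AF, 1 to 2 between the FS lines (2 without FS line 2 passage 16) and 29 to 31 for cultured cells against epiblasts. The cause of these shifts was not tested. DESeq2 called 12, 20, 8, 1 and 32 in that order. A stage comparison at a mean of at least 5 CPM tested no member and has no value.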

Other observations

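Of 29 protein-coding genes within 500000 bases of the clusters that are not members, 24 were tested between cultured cells and epiblasts. Of these, 5 were higher and 10 lower in cultured cells, against 33.9% and 27.9% of all genes. The median log2 fold change was -0.19, with a range from -2.29 (Dnd1) to 2.08 (Arap3). Taf7, which lies between the beta and gamma clusters, was at -0.87. Between AFX and AF, 1 of 23 tested was called, higher in AFX, against 4.30% of all genes higher there.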
